A study of Mus musculus with 2 samples.

Results

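The 44 genes described here are activity-regulated genes, genes whose transcription in neurons is switched on by firing and calcium entry. They were chosen by name, and the choice was made after their measured ratio between the 2 mice of this series had been seen, so that ratio is given as a description with no test. All 44 were found, each on 1 identifier, among 55536 annotated genes. The series holds total RNA-seq of left cerebral cortex from 2 mice of strain B6CASTF1/J, both female and 36 days old, 1 library each, with no treatment in the labels. This strain is an F1 hybrid whose parents are C57BL/6J and CAST/EiJ, so each mouse carries 1 allele of either parent strain at autosomal genes. The labels describe 2 animals but give both libraries the same donor record, so that the libraries come from separate mice rests on the animal names. Both libraries form 1 group, named replicate 2 and replicate 1 in the labels, and each was made from 300 ng of RNA with ERCC spike-ins (synthetic RNAs of known amount).

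Calcium entering an active neuron acts through kinases on factors that already sit on DNA, such as CREB on the cAMP response element (CRE) and SRF on the CArG box. The rapid genes need no new protein for their induction. They include transcription factors (Fos, Jun, Egr, Nr4a and Npas4 genes) and effectors that act directly at synapses or on signalling, such as Arc. Later genes are induced after them, in part by the rapid factors, and many encode secreted or synaptic proteins such as Nptx2 and activin (Inhba). The 44 genes were divided into 3 waves from general knowledge: 19 rapid transcription factors, 17 rapid effectors and 8 later genes. Whether each later gene needs new protein for its induction was not tested. Earlier results of these data were known when these waves, and the classes used below, were drawn. Differences between waves or classes are therefore descriptions only.

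Many rapid genes were higher in replicate 2, led by Egr2 (4.75-fold), Btg2 (4.21-fold), Ccn1 (4.11-fold) and Fos (4.03-fold), while the later genes had log2 ratios of -0.56 to 0.46. Levels of a gene in the 2 mice were compared as a log2 ratio of replicate 2 over replicate 1, from expected counts scaled by TMM (a scaling that takes most genes as unchanged). Its interval is a 95% exact interval for counting error only, and says nothing of how much other mice would vary. A gene was said to stand apart when its mean count was at least 100 and its ratio at least 2-fold in either direction, a rule of size and not a test. By that rule 11 of the 40 genes of the list with enough counts were higher in replicate 2, while 35 of 12615 annotated genes were, or 0.277%. None of the 40 was at least 2-fold lower, against 0.436% of all genes. Of 11849 protein-coding genes with enough counts, 21 were at least 2-fold higher and 11 at least 2-fold lower. The ratio was above 0 for 37 of the 40, against 58.9% of all genes with enough counts. Because this ratio was known when the list was made, nothing is read from these shares about the list itself. In bulk tissue, fewer cells that express a gene and less RNA per cell cannot be told apart.

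**Figure D1:**
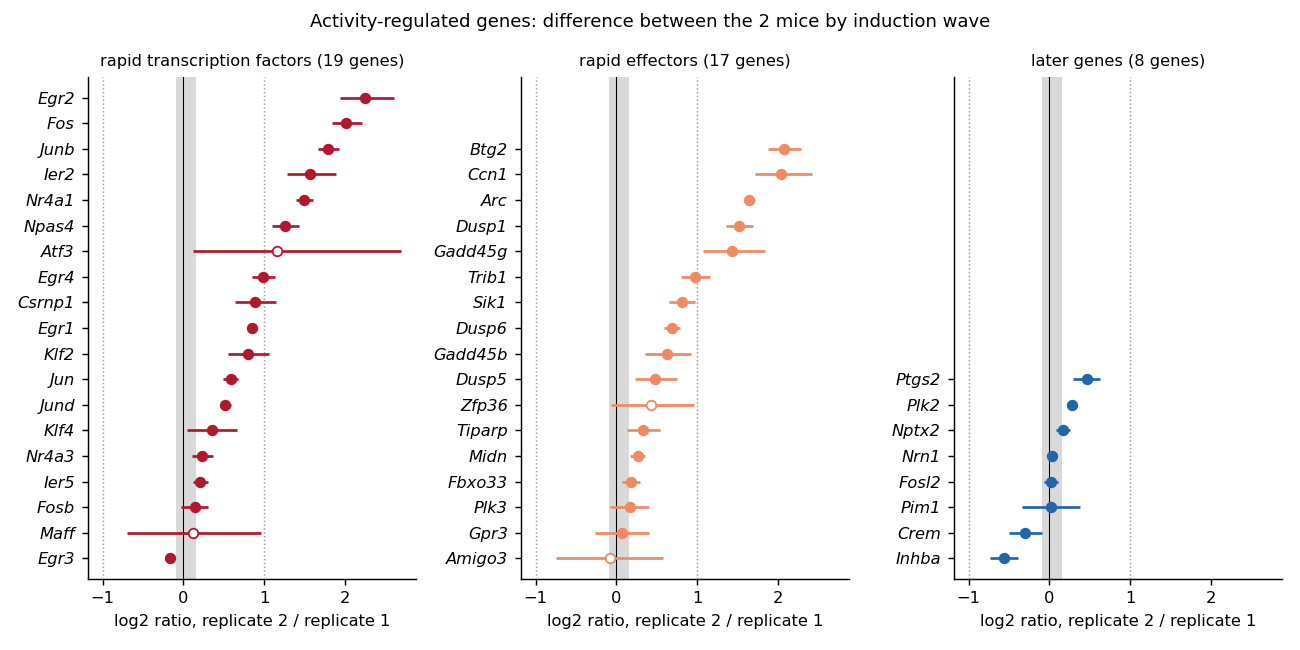
Log2 ratio of replicate 2 over replicate 1 for the 44 genes, a panel per wave. Points are the ratios, horizontal lines their 95% counting intervals, open points genes with a mean count under 100; the grey band spans the quartiles of all genes (-0.09 to 0.16) and dotted lines mark 2-fold. The 6 rapid transcription factors and 5 rapid effectors with filled points beyond the right dotted line stand apart, and all 8 later genes lie between the dotted lines.

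The rapid transcription factors had a median log2 ratio of 0.85 and a range of -0.16 to 2.25, with 18 of 19 above 0 and 6 standing apart. The rapid effectors had a median of 0.63 and a range of -0.08 to 2.07, with 16 of 17 above 0 and 5 standing apart. The 8 later genes had a median of 0.03, a range of -0.56 to 0.46, 6 above 0 and none standing apart. The median over all 12615 genes was 0.04, which is close to that of the later genes. Counting Nr4a3, Dusp5 and Dusp6, whose timing is intermediate, with the later genes gave medians of 0.87 for rapid transcription factors, 0.63 for rapid effectors and 0.17 for later genes. The reverse, counting a later gene as rapid, was not tried.

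By kind of protein, the 6 other nuclear regulators (Npas4, the Nr4a receptors, Csrnp1 and the Ier proteins) had the highest median log2 ratio, 1.07. The 6 EGR and KLF zinc finger factors followed at 0.82, the 8 signalling enzymes at 0.59, and the 9 AP-1 and related bZIP factors at 0.52. The 7 genes of RNA and protein turnover and stress had a median of 0.43. The 8 synaptic, membrane and secreted proteins had the lowest, 0.12, with Arc and Ccn1 at the top of that class. The later genes Inhba, Nrn1, Nptx2 and Ptgs2 lay below them, and so did the rapid effectors Amigo3 (-0.08) and Gpr3 (0.07), which were under Nptx2 and Ptgs2. The lowest bZIP factors, Crem and Fosl2, and the lowest enzyme, Pim1, were later genes, but the rapid Plk3 (0.16) lay below the later Plk2 (0.28).

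**Figure D2:**
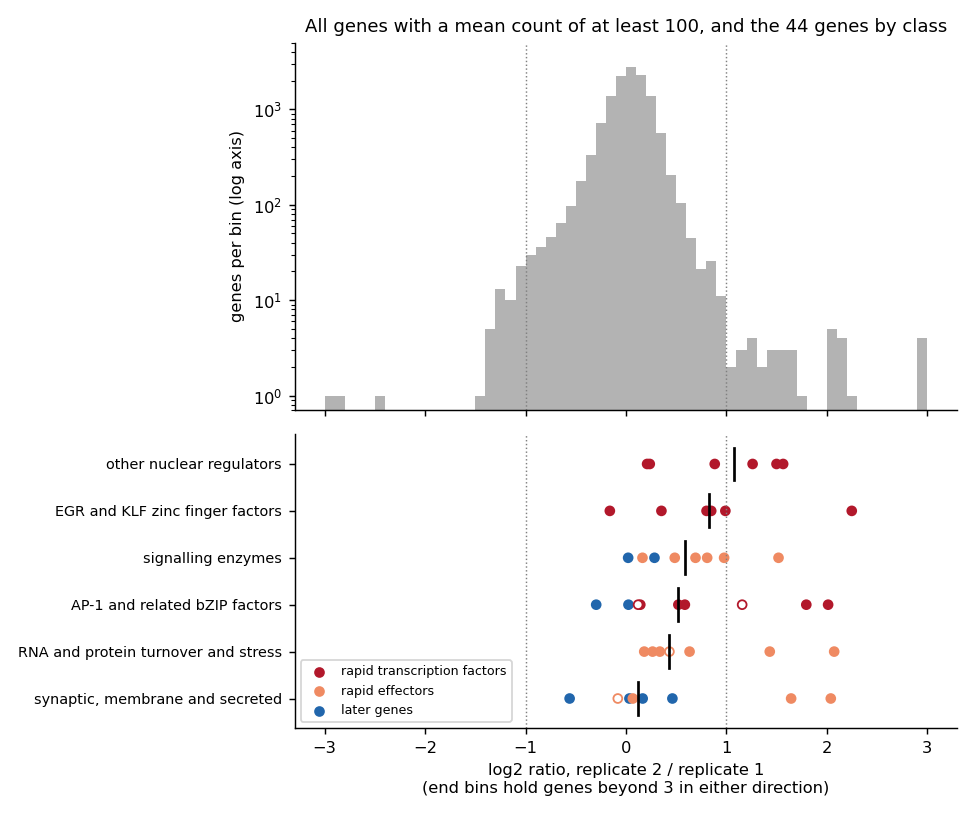
Above, the number of genes per 0.1 of log2 ratio, on a log axis, for the 12615 genes whose mean count reached 100; below, the 44 genes by class, coloured by wave, open where the mean count was under 100, with black bars at class medians. The class medians run from 0.12 to 1.07, all right of the median of all genes at 0.04.

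The promoters of 6 genes are shown because they hold matches to the CRE core, and in Egr2 also to the CArG box. All but Plk2 stood apart, so the 6 do not represent the range of ratios. Among those not shown are Dusp5 (CArG box and CRE core, log2 0.49), Zfp36 (CArG box, 0.43) and Nr4a3 (CRE cores, 0.24). Dusp1, Junb and Ccn1, which have CRE cores and stood apart, are not shown either. Each is RefSeq sequence of GRCm38.p6 on the gene's own strand, 250 bases before the transcription start and 50 after it. Each lies 0 to 345 bases from the start of the gene's most abundant transcript. For Nr4a1 that transcript depends on the quantifier. The one used held 80.8% of its TPM in replicate 2 and 62.4% in replicate 1. The second quantifier gave another transcript 90.1% in replicate 2 and 90.2% in replicate 1. Capitals mark the CRE core (TGACG, read on either strand), the CArG box and the TATA box (TATAAA). Fos, Egr2, Btg2, Nr4a1 and Npas4 stood apart, and Plk2 is a later gene with a full CRE (TGACGTCA) and a log2 ratio of 0.28.
Egr2 (chr10:67537619-67537918, plus strand): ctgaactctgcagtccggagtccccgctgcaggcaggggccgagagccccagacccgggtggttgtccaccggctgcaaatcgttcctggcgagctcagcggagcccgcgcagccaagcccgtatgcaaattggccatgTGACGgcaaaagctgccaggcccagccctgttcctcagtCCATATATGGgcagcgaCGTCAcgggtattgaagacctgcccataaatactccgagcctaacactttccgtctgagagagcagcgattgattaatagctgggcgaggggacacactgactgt
Btg2 (chr1:134079106-134079405, minus strand): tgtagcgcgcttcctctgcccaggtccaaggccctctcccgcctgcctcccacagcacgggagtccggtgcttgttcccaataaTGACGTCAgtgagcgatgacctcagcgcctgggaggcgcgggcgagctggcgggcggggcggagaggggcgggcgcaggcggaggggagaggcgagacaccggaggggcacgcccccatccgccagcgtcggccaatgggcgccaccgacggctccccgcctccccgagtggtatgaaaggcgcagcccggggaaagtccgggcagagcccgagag
Fos (chr12:85473640-85473939, plus strand): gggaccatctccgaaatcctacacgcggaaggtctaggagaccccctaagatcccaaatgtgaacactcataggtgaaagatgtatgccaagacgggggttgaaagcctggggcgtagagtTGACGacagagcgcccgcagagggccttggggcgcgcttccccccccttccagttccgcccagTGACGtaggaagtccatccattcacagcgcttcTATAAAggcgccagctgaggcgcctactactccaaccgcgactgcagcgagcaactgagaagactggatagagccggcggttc
Nr4a1 (chr15:101266596-101266895, plus strand): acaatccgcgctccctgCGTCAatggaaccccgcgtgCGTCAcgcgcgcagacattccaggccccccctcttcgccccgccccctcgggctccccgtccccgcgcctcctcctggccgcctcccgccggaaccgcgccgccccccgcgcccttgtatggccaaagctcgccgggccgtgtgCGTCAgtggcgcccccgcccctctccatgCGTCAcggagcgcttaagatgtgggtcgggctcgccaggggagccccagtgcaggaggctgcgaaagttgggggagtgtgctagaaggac
Npas4 (chr19:4989922-4990221, minus strand): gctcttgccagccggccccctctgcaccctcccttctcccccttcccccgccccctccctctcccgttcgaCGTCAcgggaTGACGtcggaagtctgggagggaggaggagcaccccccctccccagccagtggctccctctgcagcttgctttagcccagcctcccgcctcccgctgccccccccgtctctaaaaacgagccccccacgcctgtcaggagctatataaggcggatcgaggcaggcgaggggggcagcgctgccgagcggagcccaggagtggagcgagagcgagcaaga
Plk2 (chr13:110394794-110395093, plus strand): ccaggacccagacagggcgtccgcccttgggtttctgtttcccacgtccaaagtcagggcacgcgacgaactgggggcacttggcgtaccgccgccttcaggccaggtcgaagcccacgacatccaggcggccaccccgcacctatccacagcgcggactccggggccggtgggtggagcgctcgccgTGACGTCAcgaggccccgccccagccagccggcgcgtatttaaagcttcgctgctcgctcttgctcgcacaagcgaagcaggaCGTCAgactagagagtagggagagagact

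In Egr2 the CArG box lay 72 bases before the start, with a CRE core 111 bases and another 55 bases before it. Btg2 had a full CRE 166 bases before the start, and Plk2 had one 62 bases before it. Fos had CRE cores 129 and 66 bases before the start and a TATA box 33 bases before it. Nr4a1 held 4 CRE cores, and Npas4 held 2 of opposite orientation, at 179 and 169 bases before the start. A full CRE was thus present both in Btg2, at a log2 ratio of 2.07, and in Plk2, at 0.28.

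Promoter windows were given for 35 of the 44 genes, and none for Arc, Crem, Egr1, Egr3, Ier2, Nptx2, Nrn1, Sik1 and Trib1. For each gene the window nearest to the start of its most abundant transcript by the first quantifier was used. The distance was 0 to 5688 bases, the largest for Csrnp1. A CRE core lay in 22 of the 35 windows (62.9%), against 20.8% of all 32851 windows and 33.1% of the windows of 9447 genes with enough counts. A full CRE, which contains a CRE core on each strand, lay in 3 (Btg2, Dusp1 and Plk2; 8.57%), against 1.79% of all windows and 3.46% of those of genes with enough counts. The CArG box lay in 3 (Dusp5, Egr2 and Zfp36; 8.57%), against 1.63% of all windows and 1.12% of those of genes with enough counts. A TATA box lay in 6 (17.1%), against 13.6% of all windows and 6.5% of those of genes with enough counts. The AP-1 site (TGANTCA), which Fos and Jun proteins bind, lay in 2 (5.71%), below the 7.81% of all windows and above the 4.03% of those of genes with enough counts. The EGR site (GCGTGGGCG) lay in 0, against 0.612% of all windows and 1.23% of those of genes with enough counts. A match is a description of the letters and not a bound site, and sites outside these windows were not searched. The 22 genes with a CRE core had a median log2 ratio of 0.84 and the other 13 had 0.34, with wide overlap: Nr4a3 has 4 CRE cores and a ratio of 0.24.

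**Figure D3:**
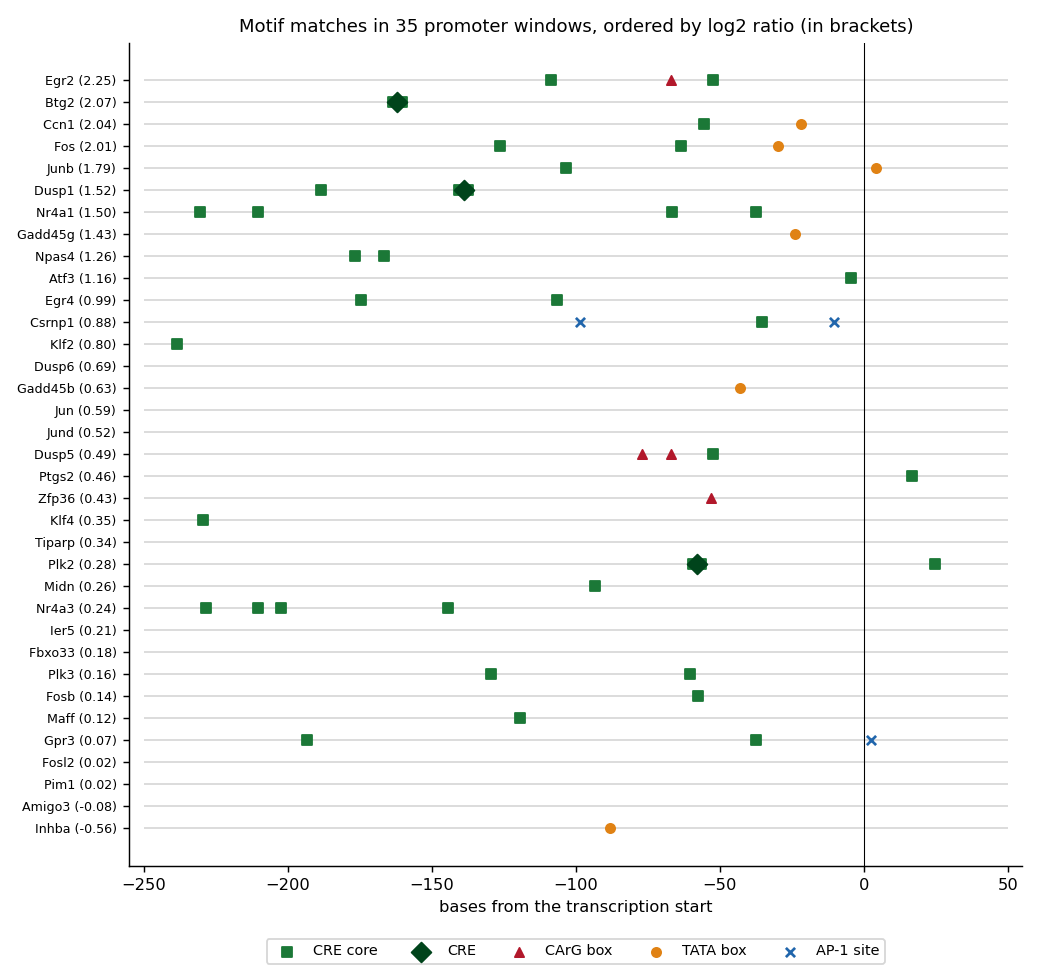
Matches to 5 motifs in the promoter windows of 35 genes, by distance in bases from the transcription start (vertical line), ordered by the log2 ratio of replicate 2 over replicate 1 in brackets. The full CREs of Btg2 and Dusp1 are near the top and that of Plk2 is in the lower part, and the 4 CRE cores of Nr4a1 and of Nr4a3 sit in genes with ratios of 1.5 and 0.24.

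Among the AP-1 genes, Fos and Junb stood apart. Fos and its relatives pair with Jun proteins to form AP-1, and Fos, the most used marker of recently active neurons, had 1348 expected counts in replicate 2 and 291 in replicate 1. In TPM, a share of all transcripts corrected for length, it stood at 30.1 TPM in replicate 2 and 10.5 TPM in replicate 1. The log2 ratio was 2.01 (interval 1.84 to 2.21). Junb had 2341 counts in replicate 2 and 589 in replicate 1, with a log2 ratio of 1.79 (interval 1.67 to 1.93). Jun had 2531 counts in replicate 2 and 1475 in replicate 1, at log2 0.59 (interval 0.49 to 0.68), and Jund, a Jun protein present in most cells at rest, had 4370 counts in replicate 2 and 2664 in replicate 1, at log2 0.52 (interval 0.45 to 0.59). Both were higher in replicate 2 by less than 2-fold.

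Fosb and Fosl2 had ratios near 0. Fosb had 680 expected counts in replicate 2 and 539 in replicate 1, a log2 ratio of 0.14 (interval -0.02 to 0.31), and Fosl2, a later partner of Jun, had 2271 counts in replicate 2 and 1954 in replicate 1, a ratio of 0.02 (interval -0.06 to 0.11). Both intervals contain 0. The make-up of the Fos family differed between the mice: Fos held 54.6% of the summed TPM of Fos, Fosb and Fosl2 in replicate 2 and 27.5% in replicate 1. Junb likewise held 27.5% of the Jun family's TPM in replicate 2 and 13.7% in replicate 1, while Jund held 56.0% in replicate 2 and 67.4% in replicate 1. Crem, whose short products repress CRE-driven genes, had 381 expected counts in replicate 2 and 410 in replicate 1 and was lower in replicate 2, at log2 -0.30 (interval -0.50 to -0.09). Atf3, a bZIP factor of injured and stressed cells, and Maff, a small Maf protein, had few counts: Atf3 had 23 counts in replicate 2 and 8 in replicate 1, and Maff had 30 counts in replicate 2 and 24 in replicate 1. Their log2 ratios were 1.16 (interval 0.12 to 2.70) for Atf3 and 0.12 (interval -0.69 to 0.97) for Maff.

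The 4 EGR genes, zinc finger factors named for early growth response, differed in their ratios. Egr2 had 491 expected counts in replicate 2 and 89 in replicate 1, the largest log2 ratio of the 44, 2.25 (interval 1.94 to 2.61), a 4.75-fold difference. Egr4 had 1277 counts in replicate 2 and 562 in replicate 1, at log2 0.99 (interval 0.85 to 1.14), the first gene outside the 2-fold rule, and Npas4, at 2.40-fold, was the last inside it. Egr1 had 8472 counts in replicate 2 and 4117 in replicate 1, at log2 0.85 (interval 0.79 to 0.90). Egr3, which binds the same DNA sequence as Egr1, had 4190 counts in replicate 2 and 4100 in replicate 1, and was lower in replicate 2, at log2 -0.16 (interval -0.22 to -0.10). In replicate 2 Egr1 stood at 106 TPM and Egr3 at 53.2 TPM, whereas in replicate 1 they were level at 70.4 and 70.7 TPM. Egr2 made up 4.80% of the family's summed TPM in replicate 2 and 1.07% in replicate 1. The Krüppel-like factors were scarce: Klf2, a factor of endothelial cells as well as neurons, had 398 expected counts in replicate 2 and 199 in replicate 1, at log2 0.80 (interval 0.56 to 1.06), and Klf4 had 218 counts in replicate 2 and 149 in replicate 1, at log2 0.35 (interval 0.05 to 0.67).

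Among the other nuclear regulators, Nr4a1, an orphan nuclear receptor, had 3436 expected counts in replicate 2 and 1063 in replicate 1, a 2.83-fold difference with a log2 interval of 1.40 to 1.6. Its relative Nr4a3 had 1173 counts in replicate 2 and 871 in replicate 1, at log2 0.24 (interval 0.11 to 0.37). Ier2, a small nuclear protein encoded by a gene of 1 exon, had 403 counts in replicate 2 and 118 in replicate 1, at log2 1.56 (interval 1.28 to 1.89), and its relative Ier5 had 2102 counts in replicate 2 and 1590 in replicate 1, at log2 0.21 (interval 0.12 to 0.31). In both pairs 1 gene stood apart and the other did not. Npas4, a bHLH-PAS factor restricted largely to neurons and driven by calcium, had 1109 expected counts in replicate 2 and 404 in replicate 1, at log2 1.26 (interval 1.10 to 1.43). Csrnp1, a nuclear protein rich in cysteine and serine, had 415 counts in replicate 2 and 196 in replicate 1, at log2 0.88 (interval 0.64 to 1.14).

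Arc had the largest difference in TPM among the effectors. Arc encodes a synaptic protein that promotes removal of AMPA receptors, and its RNA is carried to dendrites. It had 7619 expected counts in replicate 2 and 2132 in replicate 1, at log2 1.64 (interval 1.58 to 1.71), or 102 TPM in replicate 2 and 38.6 TPM in replicate 1. Btg2, which restrains proliferation and recruits deadenylases to RNA, had 1199 counts in replicate 2 and 248 in replicate 1, at log2 2.07 (interval 1.88 to 2.28). Ccn1, a secreted matrix protein also made by vessel cells, had 387 counts in replicate 2 and 81 in replicate 1, at log2 2.04 (interval 1.71 to 2.43). The related stress sensors Gadd45g and Gadd45b have been linked to DNA demethylation. Gadd45g had 244 counts in replicate 2 and 78 in replicate 1, at log2 1.43 (interval 1.08 to 1.84), and Gadd45b had 290 counts in replicate 2 and 163 in replicate 1, at log2 0.63 (interval 0.36 to 0.92).

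The signalling enzymes ranged widely, from Dusp1 at the top to Pim1. Dusp1, a phosphatase that inactivates MAP kinases in the nucleus, had 1248 expected counts in replicate 2 and 380 in replicate 1, at log2 1.52 (interval 1.36 to 1.69). Dusp6, which acts on ERK in the cytoplasm, had 2475 counts in replicate 2 and 1340 in replicate 1, at log2 0.69 (interval 0.60 to 0.79), and Dusp5, a nuclear ERK phosphatase, had 316 counts in replicate 2 and 197 in replicate 1, at log2 0.49 (interval 0.23 to 0.75). Trib1, a pseudokinase that steers protein degradation, had 814 counts in replicate 2 and 361 in replicate 1, at log2 0.98 (interval 0.80 to 1.16). Sik1, a salt-inducible kinase that restrains CREB coactivators, had 950 counts in replicate 2 and 474 in replicate 1, at log2 0.81 (interval 0.65 to 0.97). The other kinases lay closer to 0. Plk3 had 328 counts in replicate 2 and 256 in replicate 1, at log2 0.16 (interval -0.08 to 0.41). Plk2, a later gene whose kinase weakens overactive synapses, had 6543 counts in replicate 2 and 4704 in replicate 1, at log2 0.28 (interval 0.23 to 0.34). Pim1, a survival kinase and also a later gene, had 145 counts in replicate 2 and 125 in replicate 1, at log2 0.02 (interval -0.33 to 0.38).

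The remaining rapid effectors did not stand apart. Tiparp, an ADP-ribosyltransferase, had 474 expected counts in replicate 2 and 328 in replicate 1, at log2 0.34 (interval 0.13 to 0.55). Midn, a protein of proteasomal degradation, had 2127 counts in replicate 2 and 1549 in replicate 1, at log2 0.26 (interval 0.17 to 0.36). Fbxo33, a ubiquitin ligase subunit, had 1475 counts in replicate 2 and 1138 in replicate 1, at log2 0.18 (interval 0.07 to 0.29), and Gpr3, a receptor active without ligand, had 169 counts in replicate 2 and 141 in replicate 1, at log2 0.07 (interval -0.26 to 0.40). Zfp36, which destabilises RNAs with AU-rich elements, had 84 expected counts in replicate 2 and 54 in replicate 1, and Amigo3, an adhesion protein, had 42 counts in replicate 2 and 39 in replicate 1. Both had mean counts under 100 and intervals that contain 0.

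The later genes were led in level by Nrn1 (neuritin, a membrane-bound factor of neurite growth), the most abundant of all 44, at 144 TPM in replicate 2 and 166 TPM in replicate 1. It had 5435 counts in replicate 2 and 4645 in replicate 1, at log2 0.03 (interval -0.02 to 0.09). Nptx2, a secreted pentraxin that gathers AMPA receptors, had 2522 expected counts in replicate 2 and 1967 in replicate 1, at log2 0.17 (interval 0.08 to 0.25). Ptgs2, cyclooxygenase 2, which excitatory neurons of the cortex express, had 761 counts in replicate 2 and 483 in replicate 1, the highest ratio of the wave at log2 0.46 (interval 0.30 to 0.63). Inhba, the activin subunit gene, had 474 counts in replicate 2 and 613 in replicate 1, the lowest ratio of the 44, at log2 -0.56 (interval -0.74 to -0.39). Inhba and Crem were lower in replicate 2 with intervals below 0, whereas the intervals of Nrn1, Fosl2 and Pim1 contain 0.

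**Figure D4:**
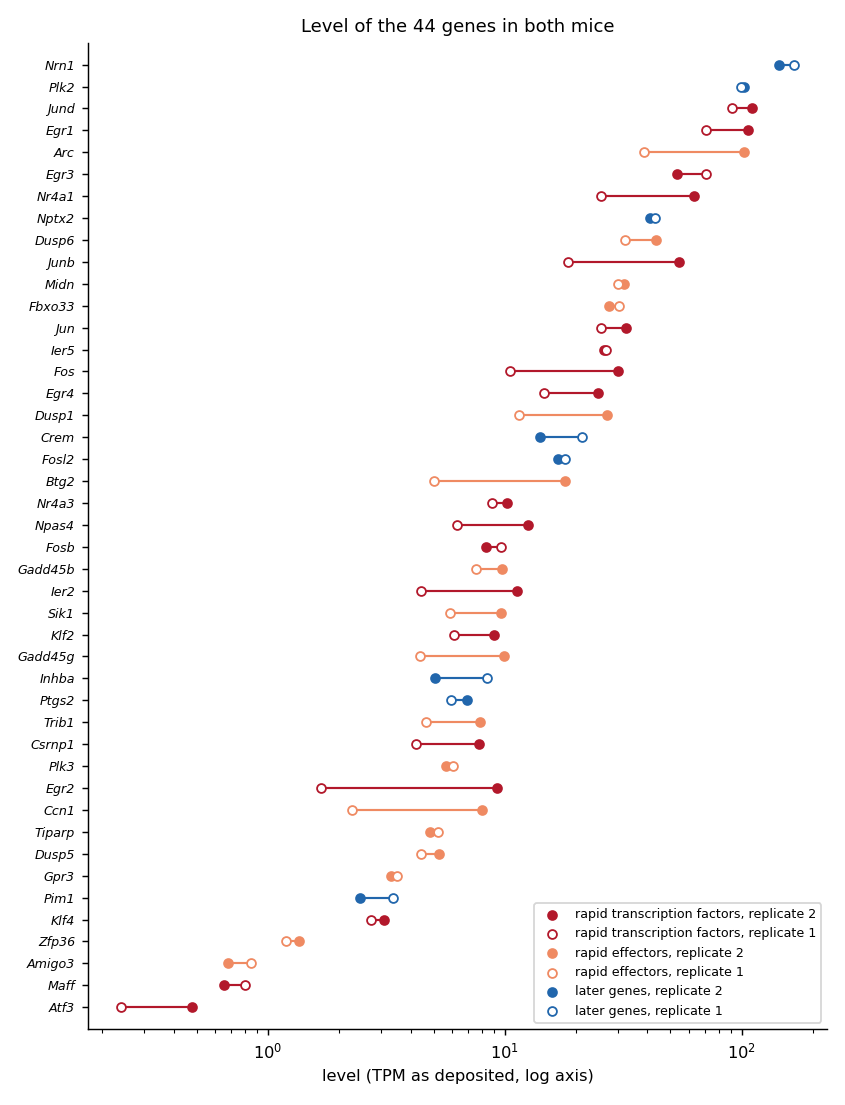
Level of the 44 genes in TPM as deposited, on a log axis, ordered by mean; filled points are replicate 2 and open points replicate 1, coloured by wave. The longest line is that of Egr2 (9.28 TPM in replicate 2 and 1.68 in replicate 1). Of the later genes, Nrn1, Plk2 and Nptx2 have short lines, and Inhba (5.08 TPM in replicate 2 and 8.40 in replicate 1) and Crem (14.1 TPM in replicate 2 and 21.2 in replicate 1) have longer ones, with replicate 2 on the left.

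The order of levels was also different in the 2 mice. In replicate 2 the highest were Nrn1, Jund, Egr1, Plk2 and Arc, and in replicate 1 Nrn1, Plk2, Jund, Egr3 and Egr1. By rank, Arc was number 5 in replicate 2 and 7 in replicate 1, Fos was 13 in replicate 2 and 19 in replicate 1, and Btg2 was 18 in replicate 2 and 30 in replicate 1. Summed over each wave, the rapid transcription factors held 573 TPM in replicate 2 and 398 TPM in replicate 1, the rapid effectors held 316 TPM in replicate 2 and 193 TPM in replicate 1, and the later genes held 333 TPM in replicate 2 and 366 TPM in replicate 1. TPM is a share of all transcripts, and in these files the median gene was lower in replicate 2 by this measure, at a log2 ratio of -0.20. Measured by TPM, 29 of the 44 were higher in replicate 2, 15 were lower, and 10 of the 11 genes still stood apart, Npas4 being the exception. Scaled by the spike-ins, the median gene was at -0.42, and 23 of the 44 were higher, 21 were lower and 9 stood apart. The share of all genes that stood apart is not given here for TPM or spike-in scaling.

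The transcript tables divided the counts of Npas4 between unlike transcripts. Transcript counts of the first table sum to the gene counts behind the choice of the genes, so they are no separate evidence on the ratios. Its coding transcript, of 8 exons and 802 amino acids, had 942 expected counts in replicate 2 and 193 in replicate 1, a log2 ratio of 2.08 (interval 1.87 to 2.33). Its intron-retaining transcript had 136 in replicate 2 and 179 in replicate 1, a ratio of -0.58 (interval -0.92 to -0.26). The coding transcript made up 84.3% of the gene's TPM in replicate 2 and 46.8% in replicate 1. The second quantifier gave 1062 coding and 120 intron-retaining counts in replicate 2, against 278 and 163 in replicate 1. The ratio of the whole gene, 1.26, is therefore lower than that of its coding RNA.

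Intron-retaining transcripts were lower in replicate 2 across the transcriptome. Over 3414 genes whose mean count reached 50 for both kinds, their log2 ratio minus that of the coding transcripts had a median of -0.52, with quartiles of -0.82 and -0.18. For Npas4 the difference was -2.67, and 4 of the 3414 genes, Npas4 among them, were at or below it. In the second table it was -2.36, with 17 of 3565 genes at or below it. Of the 6 genes of the list with enough of both kinds, Npas4, Dusp1 and Plk2 lay below 0, and Fosl2, Egr3 and Fbxo33 above it, while 85.3% of the 3414 genes lay below 0. In the second table Fbxo33 had too few counts, and 4 of the other 5 lay below 0, Egr3 now among them, with Fosl2 above it. Dusp1 had 1105 coding and 143 intron-retaining counts in replicate 2, against 308 and 71.9 in replicate 1. Egr3 carried most such RNA, with 1854 counts beside 2288 coding ones in replicate 2, and 1450 beside 2603 in replicate 1. Its coding ratio was -0.38 in the first table and -0.08 in the second, so the size of that difference is uncertain. The part of this shift in the ratios of whole genes was not tested. Counted from coding transcripts of the first table alone, the log2 ratio was higher than that of the gene by 0.82 for Npas4, 0.20 for Fos and 0.13 for Dusp1. It fell by 0.22 for Egr3, and moved by no more than 0.1 for the other genes. In the second table the coding and whole-gene ratios were 1.79 and 1.25 for Npas4, and 1.68 and 1.61 for Dusp1. They were close for Fos (2.11 and 2.07) and for Egr3 (-0.08 and -0.11), so those shifts depend on the quantifier.

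**Figure D5:**
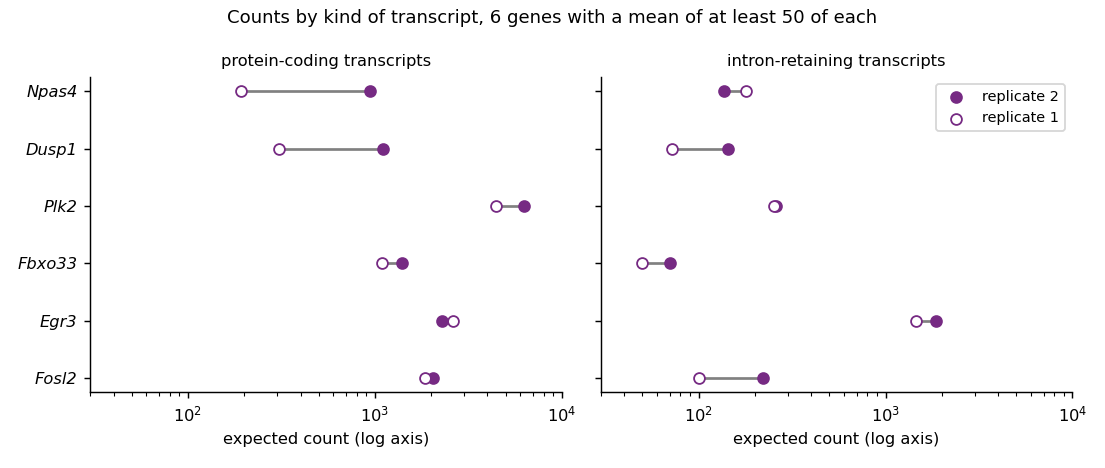
Expected counts of coding transcripts (left) and intron-retaining transcripts (right), on log axes, for the 6 genes with a mean of at least 50 of each; filled points are replicate 2 and open points replicate 1. The counts are not scaled for depth. For Npas4 the filled point is right of the open one for coding RNA (942 in replicate 2 and 193 in replicate 1) and left of it for intron-retaining RNA (136 in replicate 2 and 179 in replicate 1). In scaled log2 ratios Plk2 also lay above 0 for coding RNA (0.31) and below 0 for intron-retaining RNA (-0.16).

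Short products of Fosb and Crem were also looked at, because their truncated proteins act unlike the full ones. The transcript of the length of deltaFosB, the stable truncated form (237 amino acids), had 30.9 expected counts in replicate 2 and 44.8 in replicate 1, and the full-length one (338 amino acids) had 439 in replicate 2 and 435 in replicate 1. The second quantifier gave the form of deltaFosB length 72.1 counts in replicate 2 and 60.7 in replicate 1, so the quantifiers differed in direction. Another coding transcript of Fosb, with a still shorter protein, had 149.7 expected counts in replicate 2 and 31.9 in replicate 1. Its log2 ratio was 1.97 (interval 1.48 to 2.63). The second quantifier gave it only 12.9 counts in replicate 2 and 0 in replicate 1, so its amount depends on the quantifier. The 7 short coding transcripts of Crem that start inside the gene, of 95 to 125 amino acids as in the inducible repressor ICER, together had 180.1 counts in replicate 2 and 178 in replicate 1. They made up 70.1% of the TPM of Crem in replicate 2 and 64.6% in replicate 1. Their log2 ratio was -0.17 (interval -0.48 to 0.13), and that of the other Crem transcripts was -0.40 (interval -0.68 to -0.12).

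The genes of the list are compact. Their median span was 5606 bases and their most abundant transcript had a median of 4 exons, against 27577 bases and 9 exons for 11849 protein-coding genes with enough counts. The rapid transcription factors had a median of 3 exons, and the later genes 4.5. Of the 40 with enough counts, the 6 genes of up to 3 kb had a median log2 ratio of 0.90, the 21 of 3 to 10 kb 0.59 and the 13 over 10 kb 0.26. The rank correlation of span with the ratio was -0.38 over these 40 and -0.31 over the 11849 genes, all from the same pair of libraries. Shorter genes thus tended to have higher ratios across the 11849. The 40 were chosen with their ratios known, so their value is a description and no separate evidence of this. Dusp1 (annotated over 56539 bases) and Nr4a1 (20527 bases) stood apart with long annotated spans, and the main transcript of Dusp1 has 4 exons.

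Many short-lived RNAs carry AU-rich elements in the 3' UTR, and these were counted after the ratios had been seen. At least 1 AUUUA pentamer (searched as ATTTA on the sense strand) was found in 36 of the 44 genes, 81.8%, against 68.4% of 11788 protein-coding genes. The longer element TATTTAT, which contains the pentamer, was found in 22, or 50%, against 29.8%. Density ran from 0 in Arc, Ier2, Gadd45g, Gadd45b, Trib1, Egr4, Crem and Amigo3 to 12 per kb in Plk3 and 12.2 in Inhba. Its rank correlation with the log2 ratio was -0.08 over the 40 genes with enough counts and -0.16 over the 11788 genes. Genes that stood apart were found at both ends: Arc and Ier2 had none, while Ccn1 had 7.25 per kb, Dusp1 5.80, Nr4a1 5.52 and Fos 4.91. The value of Plk3 rests on 4 pentamers in 332 bases. For Inhba the value rests on 1 pentamer in an annotated 3' UTR of 82 bases. A longer Inhba transcript, of 6390 bases, held 376 of the gene's 474 counts in replicate 2, and its 3' UTR was not searched. The 0 of Crem rests on a transcript of 529 bases with an annotated 3' UTR of 140 bases.

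The libraries held 35188800 expected counts in replicate 2 and 29417200 in replicate 1, rounded to 100. Markers of excitatory neurons (Slc17a7 and Nrgn among them) were present in both, with a median log2 ratio of 0.05 over 5 genes, and those of inhibitory neurons had 0.08 over 6. Medians of astrocyte, microglia, endothelial and mural markers lay between -0.06 and 0.14, oligodendrocyte markers had -0.12 and meningeal fibroblast markers 0.20. The mice differed in markers of other tissue: all 4 choroid plexus markers were lower in replicate 2, summing to 9.98 TPM in replicate 2 and 73.2 TPM in replicate 1, of which Ttr had 8.29 TPM in replicate 2 and 70.1 TPM in replicate 1. All 5 red blood cell markers were lower as well, summing to 457 TPM in replicate 2 and 866 TPM in replicate 1. Few counts were found for Folr1 (5 in replicate 2 and 11 in replicate 1) and Aqp1 (10 in replicate 2 and 26 in replicate 1). The intervals of Folr1 and of the blood marker Alas2 contain 0. None of the choroid or blood markers was at 0 in either library, and their part in the results above was not tested. Of the 44 genes, 16 overlap another annotated gene, among them Junb with Prdx2 and Nrn1 with Fars2 on the opposite strand and Csrnp1 with Cx3cr1 on the same strand, and whether counting used strand is not given in the sources used here.

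Genes of the same biology outside the list, chosen as a list with earlier results known, were also measured. Of 12 other activity-regulated genes, none stood apart. Their median log2 ratio was 0.10 and their range was -0.45 to 0.57. The highest was Cebpb, a bZIP factor, with 271 counts in replicate 2 and 159 in replicate 1, and the lowest was Homer1, a synaptic scaffold, with 9608 in replicate 2 and 11516 in replicate 1. Bdnf, the neurotrophin, was at 0.13, with an interval that contains 0. Of the 12 upstream kinases and factors, which act before the rapid genes in the pathway, none stood apart either. This too is near the shares of all genes. The median of these upstream genes was -0.01, Creb1 was at -0.18, Srf at 0.18 and Mapk3, which encodes ERK1, was highest at 0.54.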

How the data were processed

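Each library came with 3 tables. Per the file headers, the gene table and first transcript table hold the authors' expected counts and TPM, and the second transcript table holds an estimated count and TPM from another quantifier. The deposited notes name build mm10 and annotation GENCODE M21, while the sources used here give no aligner or settings. Expected counts were rounded to whole numbers and scaled over 55536 annotated genes by TMM (edgeR 4.0.16, R 4.3.3). Log2 ratios used a prior count of 2, and each 95% interval comes from the exact (Clopper-Pearson) binomial interval for replicate 2's part of a gene's counts. TPM, as deposited, was used for levels, and a pseudocount of 0.1 for ratios of TPM. The labels describe separate animals but give both the same donor record, so that they are separate mice rests on the animal names, and no p-value was computed, since each gave 1 library. Loss of CAST/EiJ reads against the C57BL/6J reference was not tested. Reads carry no molecular identifiers, so intervals cover counting error only.

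The members, waves, classes and lists were chosen with earlier results of these data known. The text names all 44 members and genes of the context lists, with Prdx2 and Fars2 added as overlapping neighbours. Kinds of transcript follow the annotation. Promoters are RefSeq windows of GRCm38.p6, and their coordinates are those of mm10. The ratio step was tested on simulated data. Alternatives were DESeq2 1.42.0 size factors, spike-in and total-count scaling, the second transcript table, TPM, other minimum counts, folds and prior counts. Python 3.11.15 with pandas 2.3.3, numpy 2.4.6, scipy 1.17.1 and matplotlib 3.10.9 was used.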

Additional observations from a re-analysis of the deposited data

How the results depend on the processing

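The 11 genes that stood apart were the same under DESeq2 size factors, the total count of annotated genes and the second transcript table. Scaling by the spike-ins gave 9, without Npas4 and Gadd45g, and TPM gave 10, without Npas4. A minimum mean count of 10, or none, gave 12 with the addition of Atf3, and a limit of 1.5-fold gave 20. The share of all genes that stood apart is given above for the main setting only. These other counts therefore have no background beside them and describe the list alone. Under the spike-ins 1 gene, Inhba, was at least 2-fold lower, against 0 under TMM. The spike-ins moved the median of all genes to -0.42 and TPM moved it to -0.20, and the medians below moved with it. The median log2 ratio of the 44 genes was 0.039 with the spike-ins and 0.26 by TPM. By wave the spike-ins gave 0.38 for rapid transcription factors, 0.17 for rapid effectors and -0.44 for later genes, and TPM gave 0.35 for rapid effectors and -0.15 for later genes. By class the spike-ins gave 0.055 for AP-1 and related factors, 0.36 for EGR and KLF factors, -0.35 for synaptic, membrane and secreted proteins, 0.61 for other nuclear regulators, 0.12 for signalling enzymes and -0.021 for turnover and stress. TPM gave 0.57 for EGR and KLF factors, -0.084 for synaptic, membrane and secreted proteins, 0.34 for signalling enzymes and 0.17 for turnover and stress. In the bases before the start, 1 promoter in place of 2 held an AP-1 site. A CRE core lay there in 21 in place of 22, without Ptgs2, and a TATA box in 5 in place of 6, without Junb. Leaving out a library leaves no ratio, so only levels could be given from 1 mouse. No paired analysis was possible because both libraries belong to 1 group. Genes with few counts, such as Atf3, Maff, Amigo3 and Zfp36, have wide intervals.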

Other observations

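Homer1, which is not among the 44 genes, has a transcript of 5713 bases and 5 exons that ends inside the gene. It encodes a short scaffold protein (186 amino acids) unable to join other Homer proteins. It had 2594 expected counts in replicate 2 and 4417 in replicate 1, a log2 ratio of -0.96 (interval -1.03 to -0.89). The second quantifier gave 2827 counts in replicate 2 and 4751 in replicate 1, a ratio of -0.89. The other 11 Homer1 transcripts together had 7014 counts in replicate 2 and 7099 in replicate 1, a ratio of -0.21 (interval -0.26 to -0.16). The transcript of 5 exons made up 15.9% of the TPM of Homer1 in replicate 2 and 24.3% in replicate 1. Another transcript with a short protein (6 exons, 193 amino acids), among those 11, went the other way in share. It made up 34.7% in replicate 2 and 29.5% in replicate 1, at a log2 ratio of -0.11 (interval -0.19 to -0.03). Fos, Arc and Egr2 were higher in replicate 2, while the transcript of 5 exons was lower, and it was chosen for mention after its values were seen.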
